A study of Mus musculus with 16 samples.

Results

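The genes described here code for the proteins of the cytosolic ribosome, measured in mouse livers with or without the mitochondrial carrier Slc25a47. Members were chosen by symbol: Rpl or Rps followed by a number, with at most 1 further letter a, x, y or l, and in addition Rplp0, Rplp1, Rplp2 and Rpsa. Pseudogenes with -ps in the symbol and the Rps6k kinases were left out. The rule took 83 of the 53714 genes counted, 48 of the large subunit, 32 of the small subunit and 3 of the stalk, on 19 chromosomes. No measured value entered the rule, but the family was picked with earlier results of these data known, so counts over its members are descriptions, set beside the share of all genes called. After the filter on low counts 77 members were tested among 13905 genes.

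The ribosome joins a small subunit, which reads the messenger RNA, to a large subunit, which forms peptide bonds. Most of its proteins are needed in equal amounts in every cell, and liver spends much of its RNA synthesis on ribosomes because it makes most plasma proteins. Messenger RNAs of ribosomal proteins begin with a short stretch of pyrimidines, the terminal oligopyrimidine (TOP) motif, through which mTORC1 and LARP1 control their translation and stability according to nutrients.

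Liver poly(A) RNA was profiled in 16 males aged 9 weeks, all on the strain C57BL/6 Slc25a47tm1c(EUCOMM)Hmgu. The 4 groups of 4 libraries were fed Slc25a47hep-/- (fed KO), fed Slc25a47hep+/+ (fed WT), and both genotypes after an overnight fast (fasted KO and fasted WT). Fed mice had chow, and the Cre driver is not given in the sources used here. The libraries are separate livers as far as the labels say, and p-values measure the spread between them.

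Gene counts summed to between 19.6 and 27.4 M reads per library. Slc25a47 itself had 81.8 to 153 CPM (counts per M reads, with TMM factors) in fed KO and 460.4 to 835 CPM in fed WT livers. After the fast it had 163 to 330.3 CPM in KO and 854 to 1138.5 CPM in WT livers, so the targeted gene was lower in every KO library than in any WT library. The defining hepatocyte markers, albumin and 7 others, were found in all groups. Pancreatic acinar transcripts summed to 7.80 to 1421 CPM in fasted WT and 4.53 to 62.0 CPM in fasted KO livers, and results with the fasted WT libraries were also computed without replicates 2 and 4, which had the most.

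A run of pyrimidines near the annotated start of transcription was found in part of the members. Of the 83 members, 61 had an entry among the RefSeq promoter windows on GRCm38.p6. The following 30-base windows run from 15 bases before to 15 after an annotated start, with any run of at least 8 C or T in capitals. They are shown because these members mark the range of the response with the main settings. Rpl13a rose most in KO livers and Rpl15 did not rise. Rpl4 had the most reads, and Rplp0, Rplp2 and Rpl12 lie at the stalk or its base.
Rpl13a, chr7:45128731-45128760, reverse strand: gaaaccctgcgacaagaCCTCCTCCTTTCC
Rpl15, chr14:18270972-18271001, reverse strand: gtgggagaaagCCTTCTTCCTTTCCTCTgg
Rpl4, chr9:64173372-64173401, forward strand: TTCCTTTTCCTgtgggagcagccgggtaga
Rplp2, chr7:141447636-141447665, forward strand: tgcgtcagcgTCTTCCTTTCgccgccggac
Rplp0, chr5:115559452-115559481, forward strand: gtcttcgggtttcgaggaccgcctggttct
Rpl12, chr2:32961697-32961726, forward strand: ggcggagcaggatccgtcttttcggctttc
The run of at least 8 C or T was present in 27 of 61 members (44.3%) and in 13.9% of the 27025 genes with a window. In the Rpl4 window the run lies wholly before the annotated start. No run of that length stood in the windows of Rplp0 and Rpl12, which says only that these letters are not within 15 bases of the annotated start.

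Ribosomal protein transcripts took a larger share of the liver's gene reads in KO than in WT mice, fed or fasted. Together the 83 genes held 0.741 to 0.895% of gene reads in fed KO and 0.478 to 0.510% in fed WT livers. After the fast they held 0.628 to 0.693% in KO and 0.422 to 0.464% in WT livers. KO and WT libraries did not overlap in either feeding state.

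A measure that does not depend on how libraries are scaled gave the same order. The family level of a library is the median over the 77 tested members of their deviation from each gene's own mean (log2 CPM), minus the same median over all tested genes. It averaged 0.311 ± 0.0961 in fed KO, -0.166 ± 0.0551 in fed WT, 0.0854 ± 0.0658 in fasted KO and -0.248 ± 0.0488 in fasted WT livers (log2, SD, n = 4 each). The genotypes thus differed by 0.477 in fed and 0.334 in fasted livers, against pooled SDs of 0.0783 and 0.0580, and fasting shifted the level by -0.0822 in WT and -0.226 in KO livers, against 0.0520 and 0.0824. Leaving out 1 library at a time, the shift in WT livers ran from -0.109 (without fed WT replicate 4) to -0.0545 (without fasted WT replicate 3). No p is given for this score, since its members were chosen with results known.

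**Figure D1:**
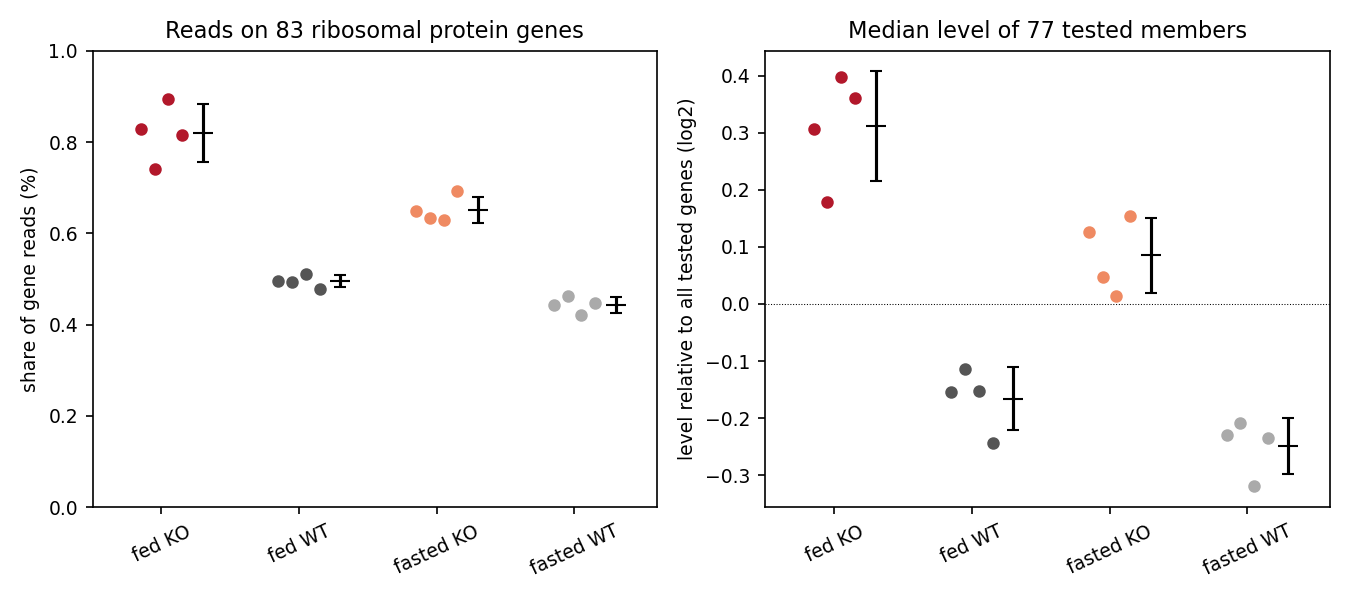
The left panel plots the share of gene reads held by the 83 genes (%) and the right panel the family level of the 77 tested genes (log2, relative to all tested genes), by group, with points for libraries and bars for the mean and SD. On the right all 4 fed KO libraries (0.178 to 0.398) lie above all fed WT libraries (-0.244 to -0.114), and all fasted KO libraries (0.0140 to 0.154) above all fasted WT libraries (-0.320 to -0.209).

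In fed livers 61 of 77 members rose in KO mice, 1 fell and 15 did not pass the test (edgeR's quasi-likelihood test over all genes, Benjamini-Hochberg adjusted p under 0.05). Of all 13905 genes tested, 14.0% were called higher and 16.9% lower in this comparison. The median log2 difference of the members was 0.48, a 1.40-fold higher level, and that of all genes -0.01. By subunit 32 of 42 large, 26 of 32 small and 3 of 3 stalk proteins rose. In 61 members every fed KO library lay above every fed WT library, as in 12.9% of all genes.

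**Figure D2:**
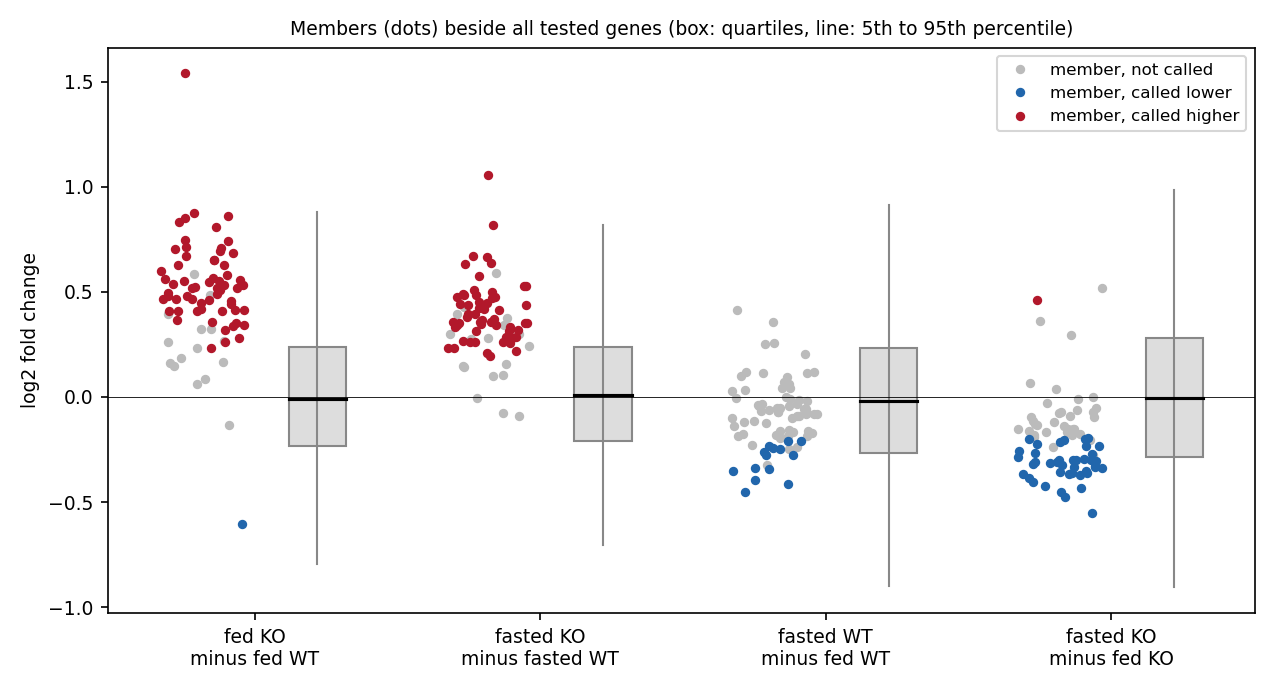
Log2 differences of the 77 tested ribosomal protein genes (dots, coloured by call) beside all tested genes (box for quartiles, line for the 5th to 95th percentile), for the 4 comparisons between groups. Members centre at 0.48 in fed KO minus fed WT and at 0.35 in fasted KO minus fasted WT, where all genes centre at -0.01 and 0.01.

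The stalk of the large subunit, which recruits the elongation factors, is built of Rplp0 and pairs of Rplp1 and Rplp2. Rplp0 (ENSMUSG00000067274, chromosome 5) had 415, 406, 473 and 454 CPM in fed KO livers and 262, 289.8, 268 and 268 CPM in fed WT livers. The lowest fed KO library stood well above the highest fed WT library, and the log2 difference was 0.68 ± 0.07 (SE, edgeR adjusted p = 1.48e-06). Rplp1 had 309.8, 307, 361 and 296 CPM in fed KO and 183, 187, 167 and 156 CPM in fed WT livers, a difference of 0.88 ± 0.10 (edgeR adjusted p = 2.74e-06). Rplp1 also had the highest level of the family per length of exon, 437 CPM per kb against a median of 21.5 over the tested members. Rplp2, at a lower level, was the least secure of the stalk genes. It had 33.3, 26.9, 36.4 and 27.9 CPM in fed KO and 26.5, 25.3, 19.2 and 20.3 CPM in fed WT livers, groups that only just did not overlap. Its difference of 0.45 ± 0.14 (edgeR adjusted p = 0.0225) lost the call without fed KO replicate 1 or 3 or fed WT replicate 3 or 4, with adjusted p between 0.0576 and 0.0821.

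Among the proteins of the large subunit Rpl13a showed the largest rise. Its gene spans 45125558 to 45128761 of chromosome 7 (GRCm38, reverse strand), and its human protein is known for a role outside the ribosome in silencing inflammatory transcripts. Rpl13a had 27.1, 21.4, 30.5 and 28.3 CPM in fed KO livers and 8.77, 10.3, 8.76 and 9.07 CPM in fed WT livers. Each KO library was far above each WT library, and the difference of 1.54 ± 0.13 was a 2.91-fold higher level (edgeR adjusted p = 6.91e-08). Rpl12, which sits at the base of the stalk, averaged 95 ± 11 CPM in fed KO and 54.3 ± 4.33 CPM in fed WT livers (SD, n = 4 each), a difference of 0.81 ± 0.09 (edgeR adjusted p = 1.77e-06). Its groups did not overlap. Rpl4, the member with the most reads, averaged 605 ± 44.9 CPM in fed KO and 422 ± 19.2 CPM in fed WT livers, close to the middle of the family with a difference of 0.52 ± 0.07.

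Among the proteins of the small subunit Rps12 had 28.6, 26.3, 31.6 and 28.0 CPM in fed KO livers and 15.9, 16, 16.3 and 15.3 CPM in fed WT livers. The WT libraries lay close together and far under every KO library, with a difference of 0.85 ± 0.09 (edgeR adjusted p = 2.07e-06). Of the 50-base stretches of its transcripts 64.9% also occur in transcripts of another gene. Rpsa, a small-subunit protein also known as a laminin receptor, stood at the median of the family. It had 221, 223, 238 and 234 CPM in fed KO and 158, 177, 163 and 159 CPM in fed WT livers, a difference of 0.48 ± 0.07 (edgeR adjusted p = 3.63e-05).

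**Figure D3:**
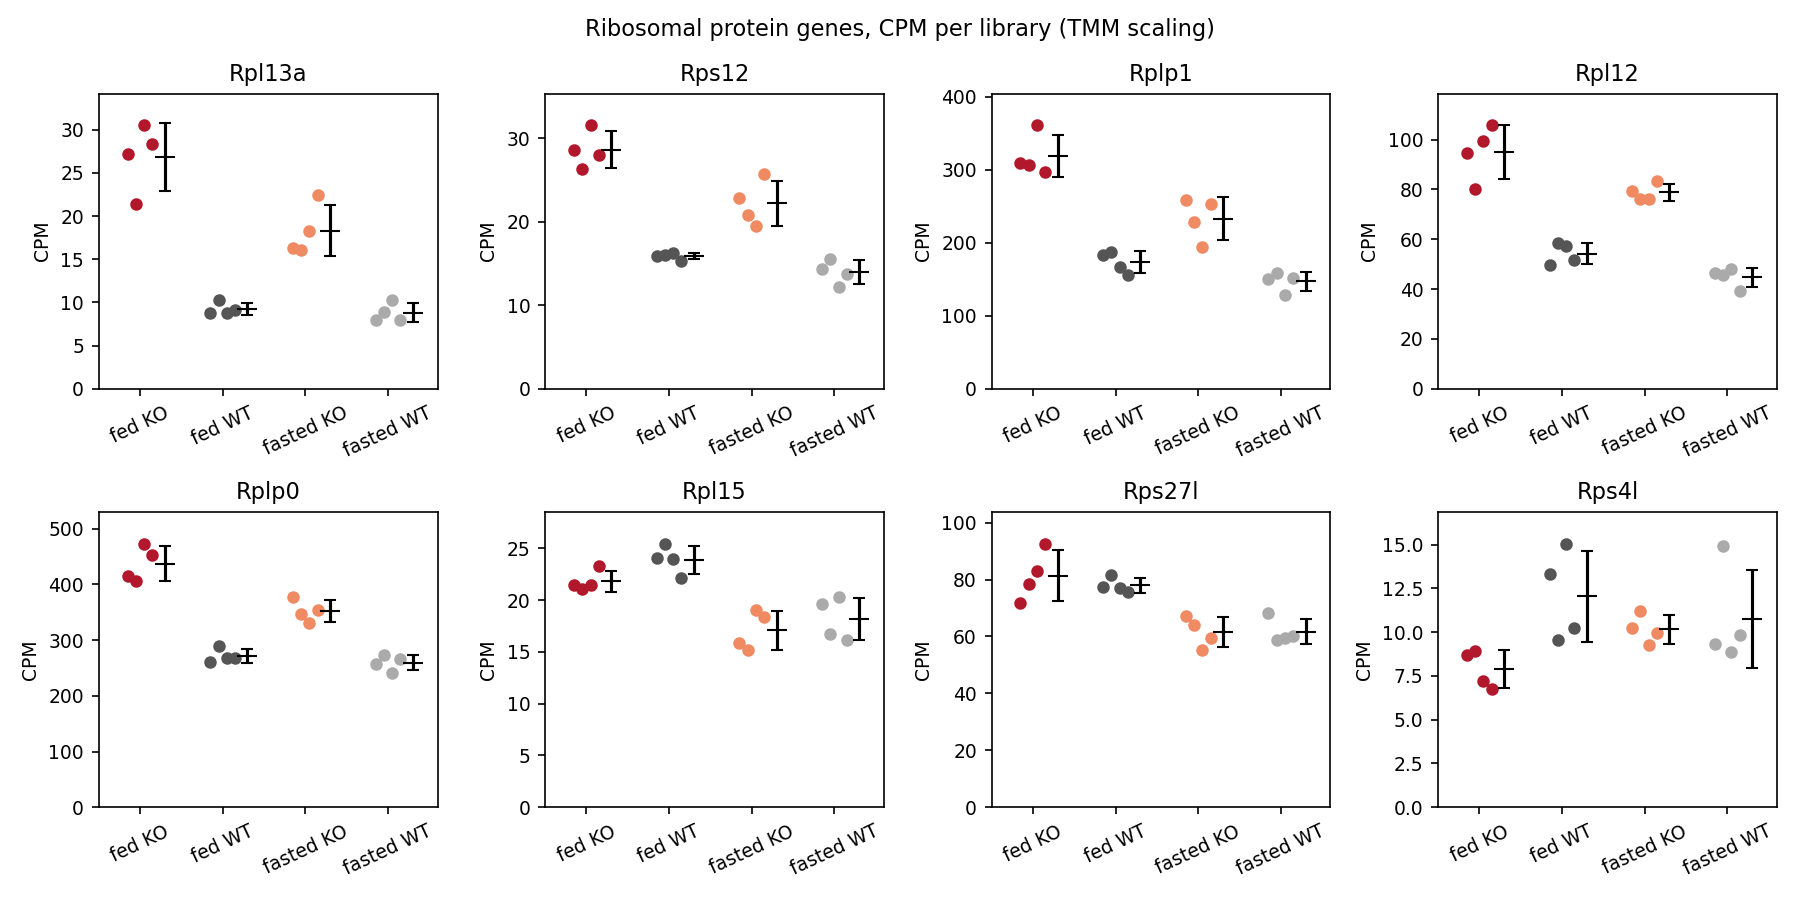
CPM of selected ribosomal protein genes in each of the 16 libraries, by group, with bars for the mean and SD (n = 4); each panel has its own axis from 0. Rpl13a and Rps12 separate KO from WT livers in both feeding states, whereas the groups overlap for Rpl15 in both states and for Rps4l after the fast.

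Rps4l, a paralogue of Rps4x with no protein-coding transcript in the annotation used, went the other way. It had 8.72, 8.92, 7.21 and 6.74 CPM in fed KO livers and 13.3, 9.55, 15.1 and 10.2 CPM in fed WT livers. The groups did not overlap but came close, and the difference of -0.60 ± 0.17 (edgeR adjusted p = 0.0101) lost the call with library totals in place of TMM (-0.38, adjusted p = 0.0895) and with scaling by all counted lines, reads aligned to several places included (-0.19, adjusted p = 0.338). Rpl15, a core protein of the large subunit whose start carries a long pyrimidine run, had 21.4, 21.1, 21.4 and 23.3 CPM in fed KO and 24.0, 25.5, 24.0 and 22.1 CPM in fed WT livers. These overlapped, with a difference of -0.13 ± 0.09 (edgeR adjusted p = 0.271). When libraries were scaled by all counted lines it took the opposite sign and passed the test as higher. Rps27l, a paralogue of Rps27 that p53 induces, averaged 81.4 ± 8.81 CPM in fed KO and 78.0 ± 2.55 CPM in fed WT livers, a difference of 0.06 ± 0.08 (edgeR adjusted p = 0.590) that passed the test with library totals (0.28, adjusted p = 0.00424). The other uncalled members were Rpl10, Rpl11, Rpl17, Rpl27, Rpl27a, Rpl31, Rpl35a, Rpl36, Rpl5, Rps23, Rps27, Rps29 and Rps6. Over all 15 uncalled members the difference ranged from -0.13 to 0.59 and 14 lay above 0. Their median standard error was 0.123, against 0.077 for the called members.

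After the fast 59 of 77 members rose in KO livers and 18 did not pass the test. The background was 13.8% of genes called higher and 14.5% lower. None of the members fell by edgeR or by the DESeq2 Wald test, and 0 had an unadjusted p under 0.05 in that direction. The median difference was 0.35, a 1.28-fold higher level, beside 0.01 over all genes. The calls took in 30 of 42 large, 26 of 32 small and 3 of 3 stalk proteins, and 55 members had groups that did not overlap, as did 14.2% of all genes in this direction. No library enters both genotype comparisons, and 58 of the 77 members rose in both, beside 7.34% of all genes.

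Rpl13a was among the 5 members with the smallest p in both feeding states. Rpl12 had 79.5, 76.3, 76.1 and 83.5 CPM in fasted KO livers and 46.4, 45.6, 47.9 and 39.3 CPM in fasted WT livers. The groups were well apart, with a difference of 0.82 ± 0.09 (edgeR adjusted p = 2.1e-06). Rpl13a had 16.4, 16, 18.3 and 22.5 CPM in fasted KO and 7.96, 8.87, 10.3 and 8.01 CPM in fasted WT livers. Again they did not overlap, and the level was 2.08-fold higher in KO livers (1.06 ± 0.13, edgeR adjusted p = 8.08e-06). Rps12 had 22.9, 20.8, 19.5 and 25.7 CPM in fasted KO and 14.4, 15.5, 12.2 and 13.8 CPM in fasted WT livers, groups that did not overlap either (0.67 ± 0.09, edgeR adjusted p = 3.54e-05).

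The stalk proteins rose in fasted KO livers as well. Rplp0 averaged 352 ± 19.5 CPM in fasted KO and 259.8 ± 13.8 CPM in fasted WT livers, and Rplp1 averaged 233 ± 29.3 CPM in fasted KO and 147 ± 13.2 CPM in fasted WT livers. Neither overlapped, and their differences were 0.44 ± 0.07 and 0.66 ± 0.10 (edgeR adjusted p = 0.000172 and 5.76e-05). For Rplp2 the difference was 0.39 ± 0.14 (edgeR adjusted p = 0.045), and the call was lost with DESeq2 size factors (adjusted p = 0.0554), with no filter on low counts (0.0711), with the replicate number as a block (0.0636) and without any one of 5 libraries (0.0512 to 0.163). Rpsa averaged 189.6 ± 9.66 CPM in fasted KO and 147 ± 10.8 CPM in fasted WT livers (0.37 ± 0.07, edgeR adjusted p = 0.000474).

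With the main settings neither Rpl15 nor the paralogues rose after the fast. Rpl15 had 15.9, 15.1, 19 and 18.3 CPM in fasted KO and 19.6, 16.7, 20.3 and 16.1 CPM in fasted WT livers (-0.09 ± 0.09, edgeR adjusted p = 0.498). Rps4l had 10.2, 11.2, 9.27 and 9.94 CPM in fasted KO and 9.34, 14.9, 8.88 and 9.86 CPM in fasted WT livers (-0.08 ± 0.16, edgeR adjusted p = 0.767), and Rps27l averaged 61.5 ± 5.22 CPM in fasted KO and 61.7 ± 4.45 CPM in fasted WT livers (edgeR adjusted p = 0.981). All 3 overlapped between genotypes. The signs of Rpl15 and Rps27l turned with scaling by all counted lines, and both then passed the test as higher. That scaling moved genes in general upward in KO livers. Differences as near 0 as these 3, that of Rps4l included, therefore take their sign from the scaling. Rpl5 and Rpl11, which carry the 5S ribosomal RNA and bind Mdm2, passed the test in neither state, with differences of 0.10 ± 0.10 and 0.14 ± 0.11 after the fast.

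Scaling mattered for the size of the genotype difference and not for its direction over the family. KO libraries had TMM factors of 1 to 1.14 and WT libraries of 0.903 to 0.966. With library totals alone the median of all genes moved to 0.21 in fed and 0.20 in fasted livers, and 73 and 71 members were called higher, beside a background of 35.1% and 30.9% of genes called higher and 6.58% and 6.49% lower. Relative to that median the members stood 0.49 and 0.34 higher in KO livers, as under TMM. A scaling factor moves all genes of a library about alike, so this agreement was fixed in advance and adds no support.

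Some other measures moved with genotype alongside the family. Reads aligned to several places, which were not assigned to genes, made up 34.7 ± 3.22% of all counted lines in fed KO and 43.3 ± 1.91% in fed WT livers, and 33.7 ± 1.13% in fasted KO and 43.2 ± 2.49% in fasted WT livers (SD, n = 4 each). Ribosomal protein genes have many processed copies, and 291 named pseudogenes of the family are in the table, holding 679.75 ± 187 reads per library in fed KO, 369.75 ± 59.2 in fed WT, 513.5 ± 111 in fasted KO and 323.25 ± 53.2 in fasted WT livers. The counts of a member are therefore the part of its reads that could be placed. The summed level of 8 hepatocyte markers was 89195 to 123560 CPM in fed KO and 133270 to 142840 CPM in fed WT livers, with 6 of 8 lower. It was 114330 to 132550 CPM in fasted KO and 99418 to 144730 CPM in fasted WT livers, with 4 of 8 lower.

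Stellate cell markers summed to 351 to 413 CPM in fed KO and 262 to 302 CPM in fed WT livers, with 5 of 7 higher, and to 352 to 417 CPM in fasted KO and 269.9 to 320.4 CPM in fasted WT livers, with 3 of 7 higher. Proliferation markers summed to 11.4 to 40.3 CPM in fed KO and 7.28 to 11.8 CPM in fed WT livers, with 5 of 6 higher, and to 6.02 to 17.7 CPM in fasted KO and 5.11 to 8.59 CPM in fasted WT livers, with 3 of 6 higher. Macrophage markers summed to 329 to 396 CPM in fed KO and 244 to 405 CPM in fed WT livers, with 1 of 8 higher. Of 6 endothelial, 7 lymphocyte and 5 bile duct markers tested, 0 were called between genotypes in fed or in fasted livers. No marker of these lists was at 0 in all libraries of these groups. The part of multiply aligned reads and of these cell types in the family's rise was not tested, and in bulk tissue fewer cells of a type and less RNA per cell cannot be told apart.

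Differences were also set beside how much sequence a member shares with other genes. The share of a member's 50-base stretches found in transcripts of another gene had a median of 37.1% over 76 tested members (0 to 95.1%). In fed livers the median difference was 0.50 for the 38 members at or under this median and 0.48 for the 38 above it, and in fasted livers it was 0.36 at or under and 0.35 above. The 6 tested members with under 10% shared, among them Rpl8, Rps20 and Rps3, were higher in KO livers in both feeding states, with medians of 0.44 in fed and 0.32 in fasted livers.

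In WT livers 14 of 77 members fell after the fast, beside 18.3% of all genes, and the median difference was -0.08 against -0.02 over all genes. None rose by edgeR or by the DESeq2 Wald test, beside 16.2% of all genes called higher, although 1 had an unadjusted p under 0.05 in that direction. The share of members called lower in WT livers was thus near the background. In 22 of 77 members every fasted WT library lay under every fed WT library, beside 17.6% of all genes. In 1 member every fasted WT library lay above every fed WT library, beside 15.2%. The number called lower also depended on the settings: 26 fell with library totals (background 20.8%), and 8 without fasted WT replicates 2 and 4. For this last refit, with fewer libraries, the share of all genes was not computed, so its count is no result about the members.

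The members with the smallest p in fasted WT livers were Rpl35a, Rps21, Rpl15 and Rps27l. Rpl35a, a large-subunit protein near the tRNA sites, had 62.3, 56.8, 60.5 and 56.6 CPM in fasted WT livers and 80.1, 83.8, 77.5 and 73.8 CPM in fed WT livers. The groups did not overlap, with a difference of -0.42 ± 0.06 (edgeR adjusted p = 3.65e-05). Rps21 averaged 37.3 ± 1.47 CPM in fasted WT and 47.4 ± 3.30 CPM in fed WT livers (-0.34 ± 0.07, edgeR adjusted p = 0.000782). Rpl15 averaged 18.2 ± 2.06 CPM in fasted WT and 23.9 ± 1.35 CPM in fed WT livers (-0.39 ± 0.09, edgeR adjusted p = 0.0023), a call lost without fasted WT replicates 2 and 4 (-0.26, adjusted p = 0.0603). Rps27l fell by 0.34 ± 0.08 (edgeR adjusted p = 0.00306). Rpl15 and Rps27l, which with the main settings passed the test for genotype in neither feeding state, were thus among those that fell with fasting in WT livers.

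In KO livers 41 of 77 members fell after the fast and 1 rose, beside 20.3% of all genes called lower and 21.1% higher. The median difference was -0.21, against 0.00 over all genes. In the same comparison 5 of 6 proliferation markers were lower in fasted KO livers (median -1.15), as were 4 of 7 stellate cell markers (median -0.51), and of 8 hepatocyte markers 4 were higher and 2 lower (median 0.26). The part of these cell types in the members' fall was not tested. Rpl26 had 125, 112, 113 and 109.7 CPM in fasted KO livers and 142, 135, 148 and 166 CPM in fed KO livers. No library of the fasted group reached the fed group, and the difference was -0.36 ± 0.07 (edgeR adjusted p = 0.00027). Rpl13a fell by 0.55 ± 0.12 (edgeR adjusted p = 0.00122), with fasted KO replicate 4 above the lowest fed KO library, and Rplp1 fell by 0.45 ± 0.10 (edgeR adjusted p = 0.00107). Rpl35a, Rps21 and Rpl21 fell by 0.33, 0.36 and 0.33, each with groups that did not overlap. The stalk protein Rplp2 changed by -0.06 ± 0.14 (edgeR adjusted p = 0.744).

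Rps27 was the single member called higher in fasted KO livers, from few reads, 1520 over all 16 libraries. It had 4.70, 5.18, 4.76 and 6.25 CPM in fasted KO livers and 4.48, 3.79, 3.91 and 2.96 CPM in fed KO livers, groups that nearly touch (0.46 ± 0.17, edgeR adjusted p = 0.041). With library totals the call was lost (0.38, adjusted p = 0.112), as with scaling by all counted lines (0.40, adjusted p = 0.0874), and it was also lost without fed KO replicate 2, 3 or 4 or fasted KO replicate 2 or 4 (adjusted p between 0.0651 and 0.134).

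Whether the genotype difference itself changed with fasting was tested directly. By edgeR 0 of 77 members passed, beside 1.70% of all genes in either direction, 1.07% higher and 0.633% lower, with 8 at an unadjusted p under 0.05 (7 with a smaller difference after the fast), where 17.1% of all genes had such a p. The DESeq2 Wald test also called 0, with 12 at an unadjusted p under 0.05 (11 with a lower difference, sign kept, after the fast). For that tool the share of all genes with such a p was not computed, so the 12 cannot be set beside a background. The smallest edgeR adjusted p was 0.175, for Rpl13a, whose genotype difference was smaller by 0.48 ± 0.18 after the fast (an estimate of -0.48). The median change was -0.12, against 0.01 over all genes. With its sign kept, the log2 difference between KO and WT was lower after the fast in 67 of 77 members. It was higher in 7226 of all 13905 tested genes. Genes lower in KO livers that moved toward 0, as Rps4l and Rpl15 did, count as higher here. Over all genes the 5th to 95th percentile ran from -0.80 to 0.88 in fed and from -0.70 to 0.82 in fasted livers. Both genotype differences enter the count of members, so it is a description of these 16 livers.

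**Figure D4:**
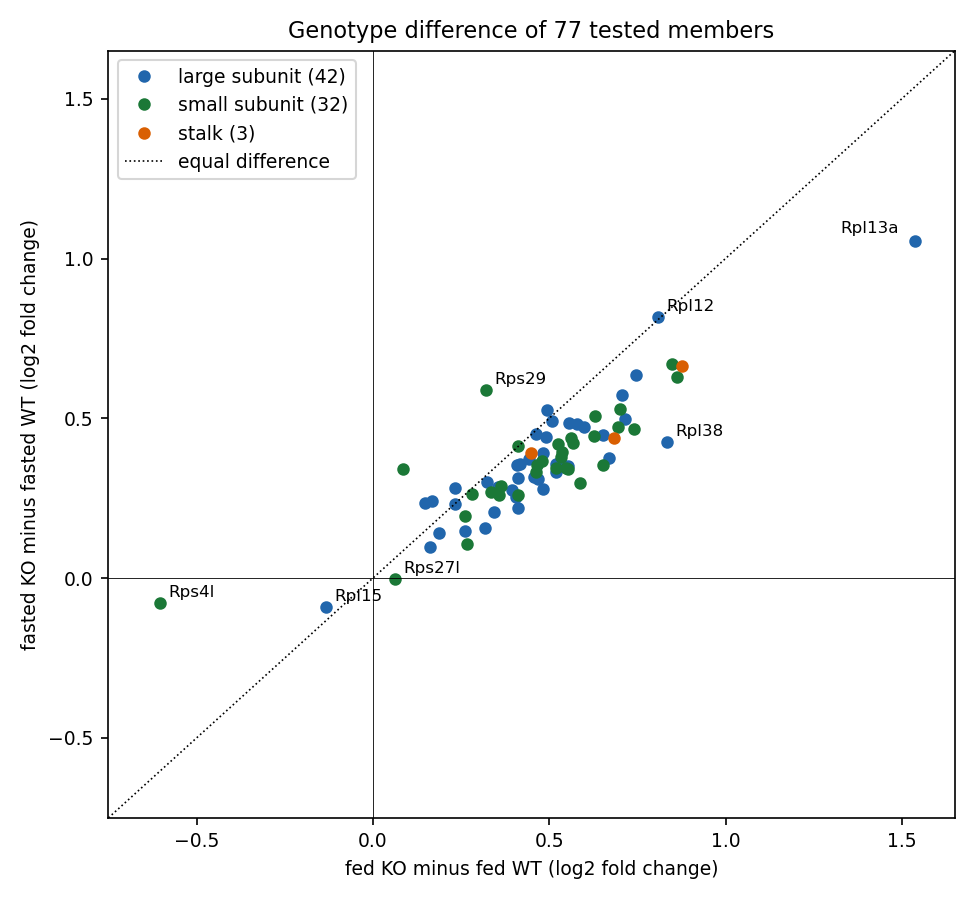
Log2 difference between KO and WT livers of each tested ribosomal protein gene, fed on the x axis and fasted on the y axis, with the line of equal differences. Most points lie under the line (67 of 77). Of all 13905 tested genes 7226 lie above it, which takes in genes lower in KO livers that moved toward 0. Rpl13a stands at the upper right (1.54 and 1.06), and Rps4l (-0.60 and -0.08) and Rpl15 (-0.13 and -0.09) lie at the lower left.

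Members with large differences in fed livers had large ones in fasted livers. Across the 77 genes Pearson's r was 0.87 and Spearman's rho 0.83, beside 0.61 and 0.60 across all tested genes. Genes are not independent replicates, and the members share libraries and depth.

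Most members followed the family over the 16 libraries, differences between the groups included. Other genes were not compared in this way. The correlation of a member's log2 CPM with the median of the family over the 16 libraries had a median of 0.90, and 57 of 77 were above 0.8. Rps12 (0.99), Rplp0 (0.99) and Rps20 (0.98) were the most alike. Rps4l (-0.58), Rpl15 (0.07) and Rps27 (0.15) were the least alike. Once group means were taken out the median was 0.57, and 9 members remained above 0.8, among them Rpl32 (0.89) and Rps20 (0.85). Libraries share depth and composition, so these values describe the samples only.

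Levels spanned a wide range among the members. Per length of exon Rplp1 (437 CPM per kb), Rpl4 (245), Rps15 (214) and Rplp0 (199) were highest, and the lowest tested was Rps29 at 0.682 CPM per kb, with 173 reads over all libraries. Rpl24 and 5 paralogues were not tested. Rpl24 had 65 reads in all, and 81.7% of its 50-base stretches also occur in other genes. Rpl10l and Rpl39l, which are known from male germ cells, had 0 and 4 reads, Rpl3l, known from striated muscle, had 27, of which 9 stood in fasted WT replicate 1, and Rpl32l and Rpl6l had 12 and 20.

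Many of these genes carry small nucleolar RNAs (snoRNAs) in their introns, which guide the modification of ribosomal RNA. In the annotation 29 of the 83 members contain snoRNA genes, 56 in all, and Rpl13a contains Snord32a, Snord33, Snord34 and Snord35a. Members with such genes had a median difference of 0.49 in fed livers and the others 0.47. In fasted livers it was 0.39 with and 0.34 without them. Poly(A) libraries do not measure the snoRNAs themselves.

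Medians were also taken by promoter letters. Tested members with the pyrimidine run near the start had a median difference of 0.47 in fed livers and those without it 0.46 (26 and 30 genes). The motif CCGGAAG, which holds the core of ETS-family sites, was searched on both strands in the 300 bases from 250 before to 50 after the start. It occurred in 25 of 61 members (41%) and in 9.93% of all genes with a window. It is shown, in capitals, in 3 members with different responses.
Rpl15, chr14:18271030-18271059, reverse strand: acaatgccccaCCGGAAGgagggtcgccgg
Rplp2, chr7:141447532-141447561, forward strand: gaaatgtcttcCTTCCGGtgcacccttttc
Rpsa, chr9:120127567-120127596, forward strand: cgccccagctaCTTCCGGcctggggtctgt
Members with the motif had a median difference of 0.45 in fed livers and those without it 0.51 (24 and 32 genes). In fasted livers it was 0.31 with and 0.35 without the motif. CACGTG, the E-box read by Myc, occurred in 9.84% of members and 8.09% of all genes, and TATAAA in 11.5% and 15.7%. A match is a description of letters and not a site.

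Ribosomal proteins that carry other names gave a mixed picture. In fed KO livers 3 of 7 rose and 1 fell, beside 14.0% of all genes higher and 16.9% lower. Rack1, the signalling scaffold on the head of the small subunit, rose by 0.56 ± 0.07 (edgeR adjusted p = 1.41e-05), Rpl22l1, a paralogue of Rpl22, by 0.61 ± 0.12 (edgeR adjusted p = 0.00124), and Fau, whose product is cut into the small-subunit protein eS30, by 0.33 ± 0.08 (edgeR adjusted p = 0.00273). Rpl7l1, a paralogue of Rpl7, fell by 0.31 ± 0.08 (edgeR adjusted p = 0.00764). After the fast 2 of 7 rose in KO livers, Rack1 by 0.40 and Rpl22l1 by 0.54, the second a call lost without fasted WT replicates 2 and 4 (0.42, edgeR adjusted p = 0.0604). Among the other genes of this list Rps27rt and Rpl36al had few reads, 179 and 182 over all libraries. Rps3a1, a small-subunit protein gene that neither the symbol rule nor this list takes, was read in addition after its values were seen. It had 197, 187, 204 and 246 CPM in fed KO livers and 153, 165, 165 and 157 CPM in fed WT livers, groups that did not overlap (0.38 ± 0.08, edgeR adjusted p = 0.000884). It was also higher in fasted KO than in fasted WT livers (0.24 ± 0.08, edgeR adjusted p = 0.0228).

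Translation factors were called higher in KO livers in both feeding states. Of 32 initiation and elongation factors 18 (56.2%) rose in fed KO livers, beside 14.0% of all genes (median of the list 0.20), among them Eif3c, a core subunit of the eIF3 complex (0.82 ± 0.08, edgeR adjusted p = 7e-07), Eef1b2, which recharges eEF1A (0.54), and Eef1a1, which brings tRNAs to the ribosome (0.41). After the fast 15 (46.9%) rose in KO livers, beside 13.8% of all genes (median 0.18), with Eif3c at 0.90, Eif3a at 0.74 and the poly(A)-binding protein Pabpc1 at 0.59. In both states 12 rose, 6 passed the test in fed livers alone and 3 in fasted livers alone, and the change of the difference with fasting passed for 0 of 32 (by edgeR). Of 12 further genes with TOP messengers 7 rose in fed and 5 in fasted KO livers (medians 0.34 and 0.25), including Btf3, which is part of the nascent chain complex (0.62 and 0.42), the import receptor Ipo5 (0.52 and 0.57) and the chaperonin subunit Cct4 (0.40 and 0.34). The 7 and 5 called are 58.3% and 41.7% of the 12, beside the same 14.0% and 13.8% of all genes. On fasting of WT livers 5 of these 12 rose, beside 16.2% of all genes, for example Ipo5 by 0.43 and Hnrnpa1 by 0.52, a comparison in which none of the 77 members was called higher by edgeR.

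Genes that build the ribosome were called higher in KO livers in both feeding states. Of 60 ribosome biogenesis factors 16 (26.7%) rose in fed KO livers (median 0.16), beside 14.0% of all genes, and 4 (6.67%) fell, beside 16.9% (Rcl1, Gnl3l, Nop16 and Utp6, named after their values were seen), whereas 39 (65%) rose in fasted KO livers, beside 13.8% (median 0.43). The 16 that rose in fed KO livers were all among these 39. On fasting of KO livers 34 of 60 (56.7%) rose, beside 21.1% of all genes, and 1 fell (median 0.38). On fasting of WT livers 13 (21.7%) rose, near the 16.2% of all genes, and 6 (10%) fell, beside 18.3%. The change of the genotype difference with fasting passed the test for 4 of them (6.67%, beside 1.07% of all genes), Nop2, Bysl, Nop16 and, named after its values were seen, Heatr1 (0.89 ± 0.22, edgeR adjusted p = 0.0498). All 4 changed toward higher in fasted KO livers, beside 0 of the 77 ribosomal protein genes, and the calls of Nop2, Bysl and Nop16 were lost under several other settings. Nop2, a methyltransferase of the large ribosomal RNA, differed by 1.16 ± 0.11 between fasted KO and fasted WT livers (edgeR adjusted p = 5.63e-07), and Bysl, needed for the small subunit, by 0.94 ± 0.10 (edgeR adjusted p = 1.47e-06). Ddx21, an RNA helicase of the nucleolus, rose by 0.65 in fed and 0.90 in fasted KO livers.

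Of 14 host genes of snoRNAs tested, 7 (50%) rose in fed and 10 (71.4%) in fasted KO livers, beside 14.0% and 13.8% of all genes, with medians of 0.71 and 0.79. Gas5, a long noncoding host with a TOP messenger, rose by 1.02 ± 0.10 in fed KO livers (edgeR adjusted p = 7.2e-07). Zfas1 rose by 1.26 and 1.40 and Snhg15 by 1.26 and 1.71 in fed and fasted KO livers.

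Genes of the mTORC1 and LARP1 pathway were called in both directions. Of 21 tested, 5 rose and 2 fell (Sesn3 and Rps6kb2) in fed KO livers and 7 rose and 1 fell in fasted KO livers. That is 23.8% higher and 9.52% lower in fed livers, beside 14.0% and 16.9% of all genes, and 33.3% higher and 4.76% lower in fasted livers, beside 13.8% and 14.5%. Counting both directions, 30.9% and 28.3% of all genes were called, so the 7 and 8 of 21 lie near the background, and the medians of the list were 0.07 and 0.04. Larp1, which binds TOP messengers, rose by 0.29 ± 0.08 in fed KO livers (edgeR adjusted p = 0.00744). Mtor rose by 0.55 ± 0.08 in fasted KO livers (edgeR adjusted p = 7.13e-05), and Ddit4, an inhibitor of mTORC1, by 3.06 ± 0.48 (edgeR adjusted p = 0.000454). Sesn3, another negative regulator, fell by 0.51 in fed and 0.82 in fasted KO livers. With scaling by all counted lines, which moved the median of all genes to 0.42, these became -0.08 (edgeR adjusted p = 0.471, the call lost) and -0.41 (edgeR adjusted p = 0.00166), and with library totals the fed difference was -0.29 with the call kept. With fasting Eif4ebp2, a repressor of cap-dependent translation, fell by 0.59 in WT and 0.75 in KO livers. These are levels of RNA, and the activity of the pathway was not measured.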

How the data were processed

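The authors deposited raw counts, that is unscaled reads assigned to each gene in each library. Libraries were stranded poly(A) libraries from 500 ng of total RNA, per the labels' protocols. The submitters' processing notes name STAR 2.5.3a, HTSeq 0.9.1, cutadapt 1.8 and the build GRCm38. Neither the strand setting nor the annotation release is stated in those sources, so overlapping genes on opposite strands may not be told apart. Reads aligned to several places (32.0 to 45.8% of counted lines), reads that met no gene (2.98 to 4.29%) and ambiguous reads (1.05 to 1.65%) stayed out of gene totals.

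Genes passed filterByExpr (13905) and were scaled by TMM in edgeR 4.0.16 on R 4.3.3. All 16 libraries entered 1 robust quasi-likelihood fit with a coefficient per group and 12 residual degrees of freedom (common coefficient of variation 0.138). P-values are two-sided, adjusted by Benjamini-Hochberg over all tested genes at 0.05. Log2 CPM (prior count 2) and CPM were calculated here, and the standard error is the log2 difference divided by the square root of F. DESeq2 1.42.0 was an alternative. Procedures were tested on simulated data. Alternatives were library totals, DESeq2 size factors and Wald test, no filter, each library left out, a block for the replicate number, only the 8 libraries compared, fasted WT replicates 2 and 4 left out, and, chosen after seeing the data, scaling by all counted lines.

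Named genes were, in each comparison, the 5 members higher and the 5 lower with the smallest p, the stalk genes, paralogues, Rpsa and up to 3 called genes of each list. Other members are named because a count or a property singles them out, chosen after their values were seen, and a few members that the rule takes are not reported here. The members and lists were chosen with earlier results of these data known. Shared 50-base stretches and snoRNA genes came from GENCODE vM21 on GRCm38, and promoter windows from RefSeq on GRCm38.p6.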

Additional observations from a re-analysis of the deposited data

Results flagged for a closer look

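Single libraries stood apart from the other 3 of their group in 8 of the 96 groups of values checked, where chance gives about 1 in 20. In fed KO livers Rps9 had 153.05 CPM in 1 library and 190.29 to 197.29 CPM in the others, and Rps2 had 183.85 CPM against 194.89 to 196.75 CPM. In fed WT livers Rps9 had 139.52 CPM in 1 library and 124.5 to 125.66 CPM in the others, Rpl36 35.547 CPM against 27.154 to 28.078 CPM, and Rpl21 76.781 CPM against 71.151 to 71.804 CPM. In fasted WT livers Rps4l had 14.899 CPM in 1 library and 8.8796 to 9.8644 CPM in the others, Rps27l 68.264 CPM against 58.626 to 60.271 CPM, and Rpl27 2.0079 CPM against 2.3128 to 2.3338 CPM.

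For 3 ribosome biogenesis factors among the named genes the genotype difference shifted after the fast toward higher in KO livers, by the test of the change itself. The change was 0.73 ± 0.15 for Nop2 (edgeR adjusted p = 0.0239), 0.58 ± 0.14 for Bysl (0.0373) and 0.42 ± 0.10 for Nop16 (0.0412), on the log2 scale. Each lost the call without fasted WT replicates 2 and 4 or with library totals or both, among other settings, with the direction kept.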

How the results depend on the processing

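The direction of the family's genotype difference was kept under every alternative run. With the main settings 62 members were called in fed and 59 in fasted livers between genotypes, 14 between fasted and fed WT and 42 between fasted and fed KO livers. Leaving out 1 library at a time gave 59 to 64, 49 to 61, 10 to 15 and 35 to 47 calls, and 0 for the change of the genotype difference. The count for fasted against fed WT livers moved to 26 with library totals and to 8 without fasted WT replicates 2 and 4, the cause of which was not tested. With scaling by all counted lines, reads aligned to several places included, turns of sign were recorded only for named genes called in either fit. These were Rpl15 in fed (0.30) and fasted livers (0.32) and Rps27l in fasted livers (0.41), each called higher under that scaling alone of the fits compared. The medians of all genes moved to 0.42 in both genotype comparisons, so other differences near 0 may have turned as well. Over 16 pairs of libraries with the same replicate number the correlation of deviations ran from -0.17 to 0.25, with 2 over 0.1. Libraries with different numbers were not compared, so whether the numbers pair the libraries was not tested. With the replicate number as a block 63, 57, 14 and 41 members were called, and 0 for the change of the genotype difference. The share of all genes called was not computed for this refit or for those with libraries left out. Their counts therefore show how calls vary with the settings and are no results about the members. The filter left out 6 members, Rps29 with 173 reads marks the lowest depth tested, and intervals of members with few reads are wide.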
